A study of Mus musculus with 8 samples.

Results

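Expression of 9 genes of the muscle stem cell and of the myogenic program was examined in tibialis anterior (TA) muscles of WT and mdx5cv mice. The set holds the paired box factors Pax7 and Pax3, the myogenic regulatory factors Myf5, Myod1, Myog and Myf6, the bHLH factor Msc, and the membrane receptors Megf10 and Calcr. The genes were taken by symbol from a table of 55401 genes, where each of the 9 symbols had its own entry. Bulk RNA-seq had been performed on 4 WT and 4 mdx5cv samples of whole TA muscle, all from males and all 6-mo-old. WT mice were wild type C57/Bl6. The mdx5cv mice carried, on the same B6 background, a point mutation in Dmd that alters splicing of the dystrophin mRNA. Neither group had received a treatment that the labels name.

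Satellite cells are the stem cells of skeletal muscle and lie between the fiber and its basal lamina. Quiescent satellite cells are marked by Pax7, activated cells turn on Myf5 and Myod1, and cells that leave the cell cycle turn on Myog before they fuse. The myogenic regulatory factors are bHLH proteins that bind E-boxes, whose letters are CANNTG, as dimers with E proteins, and Myf6 is known as the family member that mature fibers keep on. Whole muscle holds few satellite cells, and in bulk RNA fewer cells of a type cannot be told apart from less RNA per cell.

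Promoter windows are shown for Myog, which had the largest change of the 8 tested genes, and for Myf5, which was not called. RefSeq promoter windows were found for 4 of the 9 genes. The 250 bases before the RefSeq start were read 5′ to 3′ on the strand of the gene in GRCm38.p6, with E-boxes in capitals. The window of Myog is chr1:134289754-134290003 on the plus strand, and its last bases lie inside the GENCODE gene model, which starts at 134289989. The window of Myf5 is chr10:107486135-107486384 on the minus strand.
Myog: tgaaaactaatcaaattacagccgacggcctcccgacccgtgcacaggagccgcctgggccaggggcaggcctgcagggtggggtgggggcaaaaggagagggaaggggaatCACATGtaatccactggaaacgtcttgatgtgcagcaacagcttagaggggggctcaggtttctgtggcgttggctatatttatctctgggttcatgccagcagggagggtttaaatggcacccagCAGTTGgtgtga
Myf5: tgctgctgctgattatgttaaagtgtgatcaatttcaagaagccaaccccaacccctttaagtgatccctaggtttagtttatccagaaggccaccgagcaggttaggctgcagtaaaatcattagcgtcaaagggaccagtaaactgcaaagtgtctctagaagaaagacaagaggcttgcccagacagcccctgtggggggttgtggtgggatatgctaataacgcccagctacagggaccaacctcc

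The Myog window held 2 E-boxes, CACATG with its first base 138 bases before the RefSeq start and CAGTTG with its first base 12 bases before it. CAGTTG lies in the last bases of the window, inside the GENCODE gene model. The Myf5 window held 0. Of the windows not printed, that of Pax7 held 0, and 1 of the Calcr windows held CACCTG with its first base 115 bases before the start. Because CANNTG reads as CANNTG on either strand, both strands were covered by 1 search, and 66.2% of all 32851 promoter windows of this length held at least 1 match. The narrower E-box CAGCTG, which CANNTG includes, was in neither window and in 13.0% of all windows. A match here is a description of the letters, and binding was not measured.

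WT libraries held 13862559 to 14921057 recovered reads and mdx5cv libraries 13175524 to 14502624. Dmd itself fell from 6954 ± 857 normalized counts in WT (SD, n = 4) to 3964 ± 388 in mdx5cv by adjusted p (limma log2 fold change -0.81, SE 0.12, adjusted p = 0.000177), a change under the minimum fold used for calls. The mutation leaves the gene in place, so this count does not check the allele. The summed normalized counts of 6 muscle fiber genes were 977749 to 1177760 in WT and 682819 to 1054394 in mdx5cv, so the muscle label held in all 8 libraries. Of the 6, Ckm, Tnnt3 and Actn3 passed the adjusted p in the lower direction, under the minimum fold, and 3 were not called. With no minimum fold change, 20.1% of all genes tested passed in that direction. Replicate 4 of mdx5cv stood apart, with the lowest fiber sum of all muscles and the highest summed macrophage and fibroblast markers.

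Values are normalized counts, that is, reads divided by a size factor for each library. The test was limma on the log2 scale, log2(normalized count + 1), over the 13677 genes with a mean of 10 or more, and a gene was called when its Benjamini-Hochberg adjusted p was below 0.05 and its log2 fold change was 1 or more in size. Of the 9 genes, 8 were tested, 4 were called higher in mdx5cv (Myog, Megf10, Msc and Myod1) and 0 were called lower. Over all genes tested, 10.3% were called higher and 3.27% lower. Pax7 passed the adjusted p without the minimum fold change, a rule that 20.9% of all genes passed in the higher direction. Pax3, Myf5 and Myf6 were not called, and Calcr was too low to be tested. The median log2 fold change of the 8 tested genes was 1.17, beside 0.00 over all genes tested. All 4 mdx5cv muscles lay above all 4 WT muscles for 5 of the 8 genes, compared with 20.3% of all genes. Msc passed the filter on low values only through its mdx5cv muscles, so these counts describe the genes that could be tested. The 9 genes were chosen with earlier results of these data known, so the shares do not test the set.

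**Figure D1:**
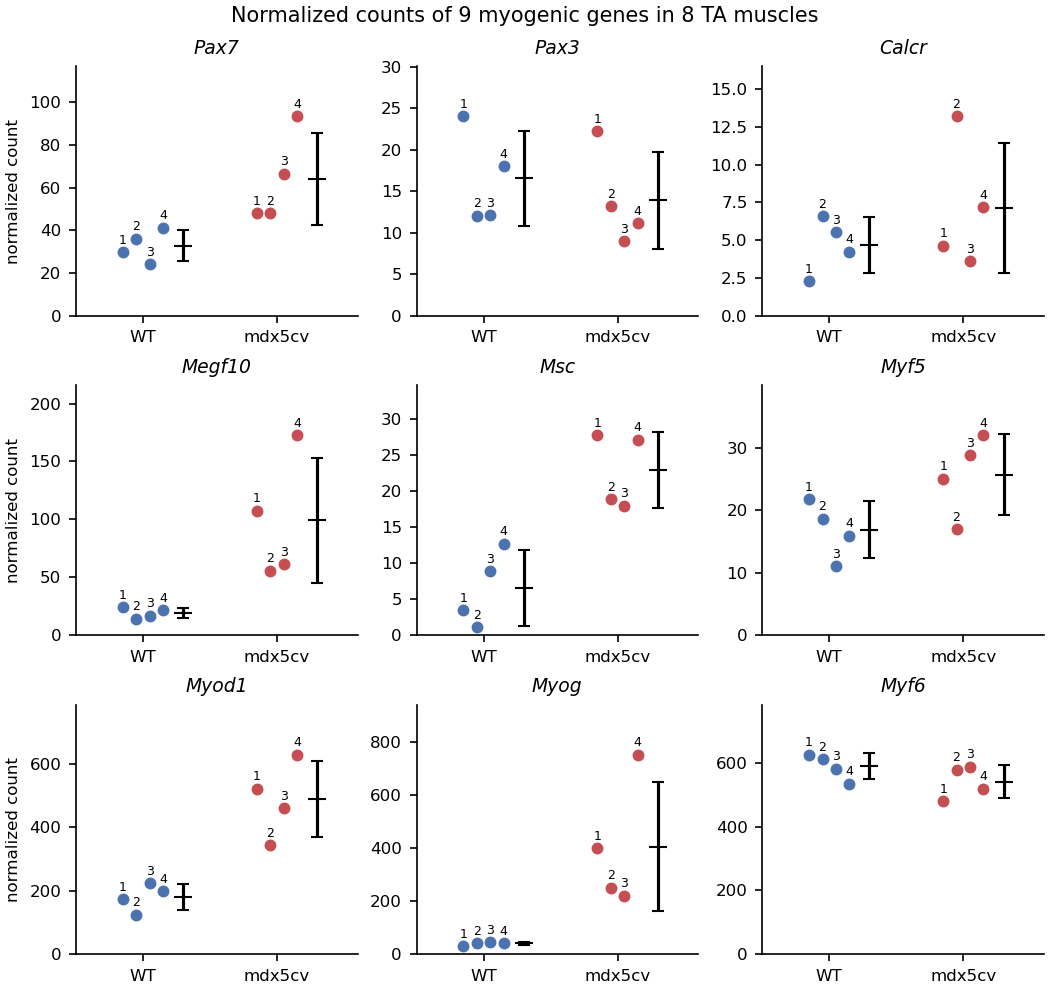
Normalized count (y axis, linear from 0) of each of the 9 genes in each TA muscle, with WT in blue, mdx5cv in red, replicate numbers above the points, and the mean ± SD (n = 4) as a black bar. The mdx5cv points lie above all WT points for Pax7, Megf10, Msc, Myod1 and Myog, and the groups overlap for Pax3, Calcr, Myf5 and Myf6.

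Pax7, the paired box factor that maintains satellite cells (chr4:139737062-139833528, minus strand, GENCODE M21 on GRCm38), was measured at 29.8, 36.2, 24.3 and 41.3 normalized counts in the 4 WT muscles and at 48.2, 48.1, 66.6 and 93.5 in the 4 mdx5cv muscles. The lowest mdx5cv muscle was above the highest WT muscle, and mdx5cv replicate 4 was the highest of all. Group means were 32.9 ± 7.41 for WT and 64.1 ± 21.4 for mdx5cv (SD, n = 4), a ratio of 1.95. The log2 fold change was 0.91 (SE 0.24, 95% interval 0.39 to 1.44, limma adjusted p = 0.00925). This estimate lies just under the minimum of 1 used for a call. It was 1.03 without WT replicate 4, 1.03 without mdx5cv replicate 1 and 1.03 without mdx5cv replicate 2, and Pax7 was then called.

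Pax3, the paralog of Pax7 that acts in embryonic muscle progenitors and stays on in satellite cells of some adult muscles (chr1:78101267-78197134, minus strand), had 24.1, 12.1, 12.2 and 18.0 normalized counts in WT and 22.2, 13.2, 9.0 and 11.2 in mdx5cv. The groups overlapped, and replicate 1 was the highest muscle of each group. The log2 fold change was -0.26 (SE 0.34, 95% interval -0.99 to 0.48, limma adjusted p = 0.580), and it turned to 0.078 when libraries were scaled to equal totals. The interval spans a fall of nearly 1 on the log2 scale as well as a rise, so no difference was detectable at this depth. The log2 ratio of Pax3 to Pax7 differed between the groups by -1.17 (exact two-sided permutation p = 0.0857, 0.143 after adjustment over 10 ratios).

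Among the receptors, Calcr, the calcitonin receptor of quiescent satellite cells (chr6:3685680-3764714, minus strand), was near the limit of detection. It had 2.29, 6.58, 5.53 and 4.24 normalized counts in WT and 4.63, 13.2, 3.6 and 7.19 in mdx5cv, from 2 to 6 reads per WT muscle and 4 to 14 per mdx5cv muscle. The groups overlapped, and a single mdx5cv muscle, replicate 2, was above all others. With no filter on low values, its log2 fold change was 0.46 (SE 0.50, 95% interval -0.58 to 1.49, limma adjusted p = 0.610), which leaves both a fall and a more than 1 log2 unit rise within the interval.

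Megf10, a multiple EGF-like domain receptor known to act in satellite cell proliferation and in cell engulfment (chr18:57133090-57297467, plus strand), rose in mdx5cv. WT muscles had 24.1, 14.3, 16.6 and 21.2 normalized counts, and mdx5cv muscles had 107, 55.7, 61.2 and 173. The groups did not overlap, and within mdx5cv the highest muscle, replicate 4, was 3.10 times the lowest, replicate 2. The mean rose from 19.0 ± 4.43 to 99.2 ± 54.1 (SD, n = 4), a ratio of 5.22, with a log2 fold change of 2.20 (SE 0.32, 95% interval 1.51 to 2.89, limma adjusted p = 0.000161).

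Msc, which encodes musculin, a bHLH repressor known from activated B cells and muscle (chr1:14753346-14755992, minus strand), also rose. It had 3.44, 1.10, 8.85 and 12.7 normalized counts in WT, from 1 to 12 reads per muscle, and 27.8, 18.9, 18.0 and 27.2 in mdx5cv, from 20 to 34 reads. No mdx5cv muscle reached down to the WT range, and the WT muscles varied more among themselves relative to their mean (coefficient of variation, CV, 80.5%) than the mdx5cv muscles did (CV 22.8%). The log2 fold change was 1.98 (SE 0.51, 95% interval 0.88 to 3.08, limma adjusted p = 0.00758), and it was 1.04 with a pseudocount of 10. Msc shares exon bases with Gm9947 on the opposite strand, which had 3.44 to 11.1 normalized counts in WT and 5.66 to 9.59 in mdx5cv, and the strand setting of the counting is not given in the sources used here. As to B cells, 4 marker genes together summed to 4.42 to 17.6 normalized counts in WT and 1.80 to 12.8 in mdx5cv. All 4 had means under 10 and were too low to be tested. The part of B cells in the Msc values was not tested.

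Myf5 and Myod1 are the factors that commit cells to the muscle lineage. Myf5 (chr10:107482908-107486134, minus strand) had 21.8, 18.6, 11.1 and 15.9 normalized counts in WT and 25.0, 17.0, 28.8 and 32.0 in mdx5cv. The groups overlapped through mdx5cv replicate 2, and the other 3 mdx5cv muscles were above all WT muscles. The log2 fold change was 0.58 (SE 0.28, 95% interval -0.03 to 1.20, limma adjusted p = 0.118).

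Myod1 (chr7:46376474-46379099, plus strand) had 173, 125, 223 and 199 normalized counts in WT and 523, 343, 462 and 630 in mdx5cv. The groups did not overlap, and the relative spread was similar in both groups (CV 23.4% and 24.5%). The mean rose from 180 ± 42.1 to 490 ± 120 (SD, n = 4), a ratio of 2.72, with a log2 fold change of 1.44 (SE 0.20, 95% interval 1.01 to 1.86, limma adjusted p = 0.000106).

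Myog, myogenin, the factor of terminal differentiation (chr1:134289989-134292548, plus strand), showed the largest change of the 8 tested genes. It had 30.9, 41.7, 46.4 and 42.4 normalized counts in WT and 401, 251, 221 and 754 in mdx5cv. The WT muscles were tightly grouped, whereas the mdx5cv muscles were spread, with replicate 4 at 3.42 times replicate 3. The mean rose from 40.4 ± 6.62 to 407 ± 245 (SD, n = 4), a ratio of 10.1, with a log2 fold change of 3.14 (SE 0.30, 95% interval 2.48 to 3.80, limma adjusted p = 7.61e-06). This was rank 228 from the highest among the 13677 genes tested. Without mdx5cv replicate 4 the estimate was 2.79, and Myog was still called.

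Myf6, also called MRF4, the factor of mature fibers (chr10:107492853-107494737, minus strand, next to Myf5), had 626, 612, 582 and 534 normalized counts in WT and 479, 578, 588 and 519 in mdx5cv. The groups overlapped and the spread within each was small, with a CV of 6.92% in WT and 9.52% in mdx5cv. The log2 fold change was -0.12 (SE 0.10, 95% interval -0.35 to 0.10, limma adjusted p = 0.372), and it turned to 0.23 when libraries were scaled to equal totals, a scaling that moved the median of all genes to 0.36. The interval of the main estimate was the narrowest of the 8 genes.

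**Figure D2:**
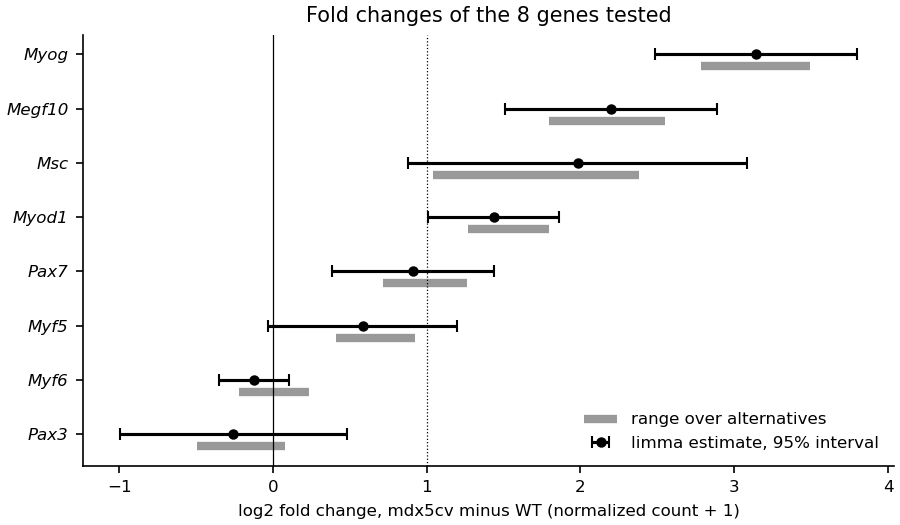
Log2 fold change of the 8 tested genes, mdx5cv minus WT on the log2(normalized count + 1) scale, with points and black bars for the limma estimate and its 95% interval and gray bars for the range over the alternative analyses. The solid line marks 0 and the dotted line the minimum fold for a call; Myog is at 3.14, Pax7 at 0.91 lies just left of the dotted line, and the gray bars of Pax3 and Myf6 reach both sides of 0.

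Changes of unequal size within the set were examined as log2 ratios of gene pairs within each muscle, which do not depend on library scaling apart from the pseudocount. Of 10 ratios, 5 reached the smallest p that 4 against 4 muscles can give (exact two-sided permutation p = 0.0286), and none passed 0.05 after adjustment over the 10 (adjusted exact p = 0.0571). The mean log2 ratio differed, mdx5cv minus WT, by 2.23 for Myog to Pax7, by 1.71 for Myog to Myod1 and by 1.29 for Megf10 to Pax7. It differed by -1.04 for Myf6 to Pax7 and by -1.56 for Myf6 to Myod1. For each of these 5, the mdx5cv and WT muscles did not overlap. The ratio of Myod1 to Pax7 differed by 0.52 with overlapping groups (exact permutation p = 0.20), and that of Myf5 to Pax7 by -0.33 (exact permutation p = 0.229). The ratios of Msc and of Calcr to Pax7 differed by 1.07 (exact permutation p = 0.229) and -0.46 (exact permutation p = 0.429).

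Levels were compared between genes per kilobase of exon, from the exon union of GENCODE M21. In WT the order was Myf6 at 466 ± 32.2 normalized counts per kb (SD, n = 4), Myod1 at 96.8 ± 22.6, Myog at 27.0 ± 4.43, Myf5 at 8.09 ± 2.18, Pax7 at 5.62 ± 1.26, Pax3 at 2.68 ± 0.924, Msc at 2.56 ± 2.06, Megf10 at 2.46 ± 0.573 and Calcr at 1.19 ± 0.472. The ranges of neighbors overlapped between Myf5 and Pax7, between Pax3 and Msc, and between Msc and Megf10, and the other neighbors did not overlap. In mdx5cv the order was Myf6 at 428 ± 40.8 per kb, Myog at 272 ± 164, Myod1 at 263 ± 64.4, Megf10 at 12.9 ± 7.02, Myf5 at 12.3 ± 3.10, Pax7 at 10.9 ± 3.66, Msc at 9.02 ± 2.06, Pax3 at 2.25 ± 0.939 and Calcr at 1.83 ± 1.10. Here only the steps from Myod1 to Megf10 and from Msc to Pax3 were free of overlap. Myf6, Myog and Myod1 formed a high tier, in which Myog overlapped both others. Myf6 (379 to 466 per kb) lay above Myod1 (185 to 339 per kb).

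The 4 myogenic regulatory factors together reached 598 ± 25.5 normalized counts per kb in WT and 976 ± 202 in mdx5cv. Myf6 held 77.9% ± 3.85 of this sum in WT and 45.5% ± 11.1 in mdx5cv. The share of Myog was 4.53% ± 0.805 in WT and 26.4% ± 10.1 in mdx5cv, where it ranged from 16.9% to 39.8%. Myod1 held 16.2% ± 3.75 in WT and 26.9% ± 3.16 in mdx5cv, and Myf5 held 1.35% and 1.27%.

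**Figure D3:**
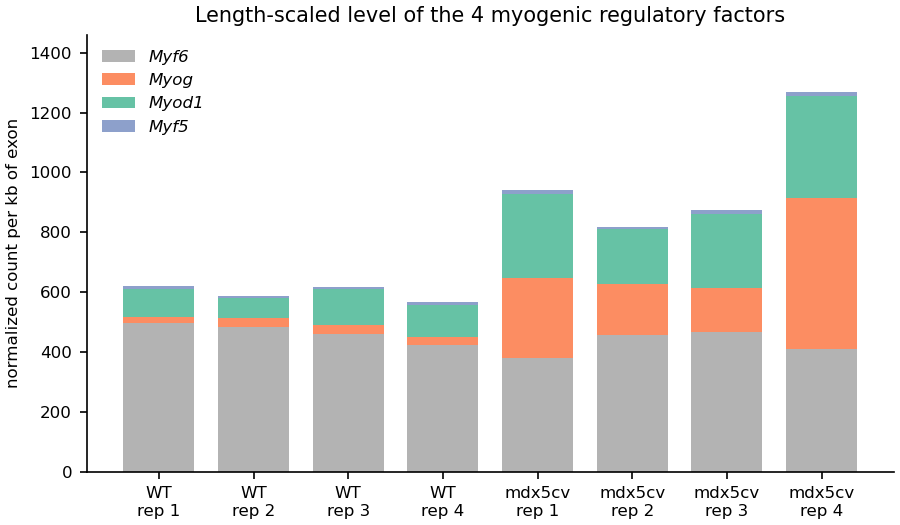
Stacked bars of the normalized count per kb of exon (y axis) of Myf6, Myog, Myod1 and Myf5 in each of the 8 TA muscles (x axis). The gray Myf6 part is of similar height in all muscles, whereas the Myog part is thin in WT (4.53% of the sum on average) and wide in mdx5cv (26.4%), most of all in replicate 4 (39.8%).

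Within mdx5cv the genes did not share a single order of muscles. Replicate 4 was the highest of the 4 for 5 of the 9 genes (Pax7, Myf5, Myod1, Myog and Megf10), whereas replicate 1 was the highest for Pax3 and Msc, replicate 2 for Calcr and replicate 3 for Myf6. In replicate 4 the macrophage markers summed to 3875 normalized counts. Their sums were 1625 to 2139 in the other 3 mdx5cv muscles and 327 to 511 in WT. All 6 of these markers were called higher, beside 10.3% of all genes tested. Among them Itgam passed the filter on low values only through mdx5cv. The 5 fibroblast markers summed to 14293 in replicate 4, 8882 to 11058 in the other mdx5cv muscles and 3393 to 6496 in WT. Of these 5, 2 were called higher, Col1a1 (780 ± 161 in WT to 6996 ± 2217 in mdx5cv) and Lum. Pdgfra and Dpt passed the adjusted p in the higher direction, under the minimum fold. With no minimum fold change, 20.9% of all genes tested passed the adjusted p in the higher direction and 20.1% in the lower. Dcn was at 3090 ± 1200 in WT and 2488 ± 358 in mdx5cv and was not called. The 5 endothelial markers summed to 2891 to 3438 in WT and 1705 to 2161 in mdx5cv. All 5 passed the adjusted p in the lower direction with changes under the minimum fold, beside the 20.1% of all genes. Osteoclast markers summed to 19.5 to 53.7 in WT and 241 to 580 in mdx5cv. Of the 5, Dcstamp and Oscar were too low to be tested, and the other 3 were called higher. Of those called, Acp5 and Atp6v0d2 passed the filter on low values only through mdx5cv. T cell markers summed to 2.29 to 4.39 in WT and 13.0 to 41.6 in mdx5cv, with none of 4 high enough to be tested. Mural cell markers summed to 5599 to 6967 in WT and 3941 to 4602 in mdx5cv, where Rgs5 and Myh11 passed the adjusted p in the lower direction and Pdgfrb and Acta2 in the higher, all under the minimum fold. Schwann cell markers summed to 186 to 362 in WT and 104 to 173 in mdx5cv, and of 4 tested 1 was called lower and 1, Ngfr, higher. The melanocyte markers reached at most 1.06 and 2.70, with Tyr at 0. The part of these cell types in the myogenic values was not tested. Without replicate 4, the same 4 genes were called higher, and the median log2 fold change of the 8 was 1.01.

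The genes whose centered profiles over the 8 muscles lay closest to each tested gene were found by Euclidean distance on the log2 scale. The difference between the groups is part of this distance, so near genes have similar fold changes. For Myog (3.14) the nearest gene had a log2 fold change of 3.09. Shared regulation was not tested. Pax7 was closest to Lpin2 (distance 0.34), Robo1 and Soga1, and Myod1 to Nes (0.32), Adcy3 and Fgf11. Myog was closest to Ptafr (0.39), Ccr1 and Naip5, and Megf10 to Galns (0.32), Adgrl3 and Blnk. Myf6 was closest to Ddx18 (0.10), Arpp19 and Dnttip2, whereas Msc, with few reads, had no neighbor nearer than Rtl5 (0.80), followed by Was and Egr2. Myf5 was closest to Slit1, Relb and Pik3cb, and Pax3 to Gm38067, A730011C13Rik and Gm15879. Of these near genes, Ccr1, Naip5, Rtl5, Was and Egr2 passed the filter on low values only through mdx5cv.

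Genes that act with these 9 were examined in 7 lists of 86 different genes, of which 80 were tested, 31 were called higher and 1 lower. These counts and those of each list stand beside 10.3% of all tested genes called higher and 3.27% called lower. The lists were chosen with earlier results of these data known, so the counts describe the lists and do not test them. Of 18 satellite cell surface and signaling genes, 17 were tested and 5 were called higher, 0 lower. A further 4 passed the adjusted p in the higher direction. With no minimum fold change, 20.9% of all genes tested passed in that direction. The 3 largest rises were those of the adhesion molecule Ncam1 (81.2 ± 12.2 to 577 ± 282 normalized counts, log2 fold change 2.71, SE 0.25), the chemokine receptor Cxcr4 (31.2 ± 5.89 to 141 ± 41.0, 2.11, SE 0.22) and the receptor Fgfr4 (15.4 ± 6.05 to 50.7 ± 21.9, 1.65, SE 0.33). The median of the list was 0.42. The cadherin Cdh15, a surface marker of satellite cells, was at 169 ± 27.6 and 230 ± 93.4 with overlapping groups (limma adjusted p = 0.193).

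Of 15 dimer partners and inhibitors of the bHLH factors, 13 were tested and 2 were called higher, 0 lower, with a median of 0.16, and this share is near the 10.3% of all genes called higher. Mdfic passed the adjusted p in the higher direction (0.91) and Bhlhe41 in the lower (-0.47). The called genes were Mdfi, which holds myogenic factors in the cytoplasm (6.02 ± 1.76 to 47.7 ± 6.24 normalized counts, log2 fold change 2.83, SE 0.28) and which passed the filter on low values only through mdx5cv, and Id2, which binds E proteins (20.5 ± 7.61 to 61.7 ± 14.0, 1.58, SE 0.25). None of the E protein genes Tcf3, Tcf4 and Tcf12 was called, with log2 fold changes of 0.19, 0.16 and 0.22. Of 12 upstream factors and cofactors, all were tested and 0 were called. In that list 5 passed the adjusted p in the lower direction and 1 in the higher, beside 20.1% of all genes lower. Among the lower genes were Six4 (-0.37), Eya1 (-0.47), Srf (-0.55) and Lbx1 (-0.54), and the higher gene was Paxbp1 (0.38).

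Of 16 genes that myogenic factors turn on or that mark new fibers, all were tested, 12 were called higher and 0 lower, with a median of 3.11, and 3 of the 16 passed the filter on low values only through mdx5cv. The fusion gene Mymk had 1 read over the 4 WT muscles and 114 to 448 normalized counts in mdx5cv. Its partner Mymx had 0 reads in WT and 24.5 to 88.7 normalized counts in mdx5cv, at least 54.0-fold higher against a floor of 3 reads over the WT group. Chrng, the fetal acetylcholine receptor subunit, had 1 read over the WT muscles and 49.1 to 230 normalized counts in mdx5cv. The embryonic myosin Myh3 rose from 39.8 ± 7.43 to 3101 ± 2096 (log2 fold change 6.02, SE 0.35). Ckm, creatine kinase of mature fibers, passed the adjusted p in the lower direction (-0.75, SE 0.24).

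Of 12 partners of Calcr, Megf10 and the Notch pathway, 9 were tested and 4 were called higher, 0 lower, with a median of 0.65. The 3 largest rises were those of the collagen V chains Col5a2 (2.33, SE 0.22), Col5a1 (2.19, SE 0.21) and Col5a3 (1.73, SE 0.23). The calcitonin gene Calca had 0 normalized counts in all mdx5cv muscles and at most 1.10 in WT, and Calcb had 0 in all 8 muscles. Of 8 proliferation genes, all were tested, 6 were called higher and 0 lower, with a median of 4.19, although 5 of the 8 passed the filter only through mdx5cv. Top2a rose from 4.27 ± 7.06 to 179 ± 91.9 and Mki67 from 13.5 ± 15.1 to 362 ± 194 normalized counts, and without WT replicate 4, the highest WT muscle for both, the WT means were 0.751 and 5.94. Birc5 had 1 read over the WT muscles and 13.2 to 40.0 normalized counts in mdx5cv. Pcna and Mcm2 were not called.

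Denervation also raises Myog and acetylcholine receptor genes in muscle, so 9 genes of that response were counted. Of these, 5 were called higher and 1 lower, with a median of 2.71, and the list shares Chrng, Chrna1 and Ncam1 with the lists above. The factor Runx1 rose from 50.4 ± 9.03 to 607 ± 229 normalized counts (log2 fold change 3.51, SE 0.21). Dach2, a repressor of Myog, was at 79.4 to 203 in WT and at 0.799 to 3.77 in mdx5cv, with a log2 fold change of -5.60 (SE 0.37, limma adjusted p = 6.23e-07). Musk, the receptor kinase of the neuromuscular junction, was at 169 ± 29.7 and 168 ± 33.7 (log2 fold change -0.01, SE 0.17). Hdac4 was not called either (log2 fold change -0.06, SE 0.10). Whether denervation had a part in any of these values was not tested.

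**Figure D4:**
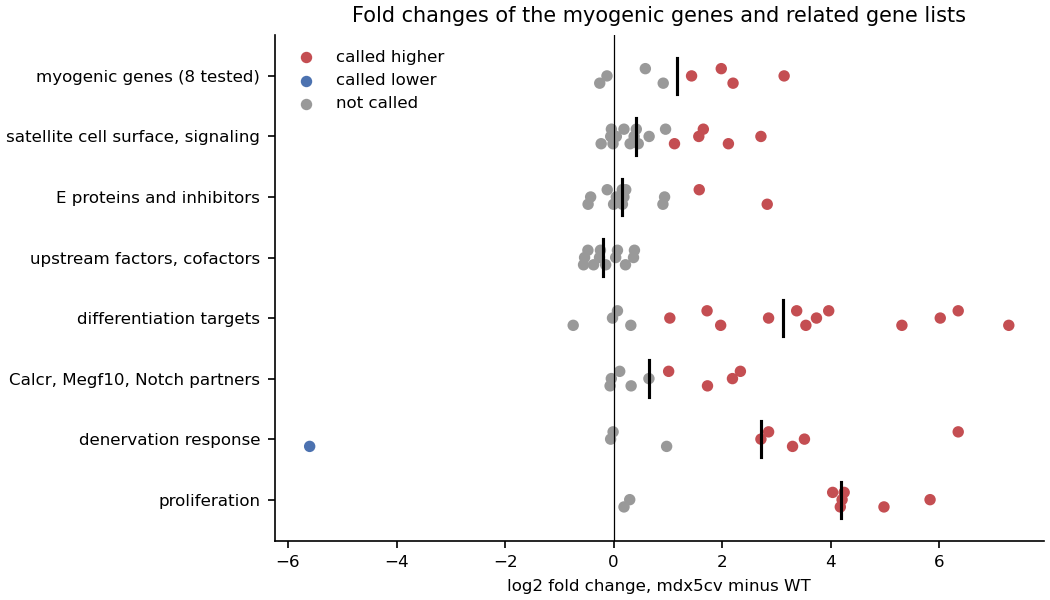
Log2 fold change, mdx5cv minus WT, of each tested gene (points) in the 9-gene set and the 7 related lists (y axis), with black bars for the median of each list. Red points were called higher, blue lower and gray not called; the differentiation targets (median 3.11) lie to the right of the upstream factors and cofactors (median -0.20), and Dach2 is the 1 blue point.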

How the data were processed

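The 4 WT and 4 mdx5cv samples of whole TA muscle were grouped by the genotype in their labels. Per the labels, RNA was isolated with Trizol and libraries were made with a stranded total RNA kit. The submitters' processing notes name FastQC, Trim Galore 0.6.4, STAR 2.6.0c, SAMtools 1.9, featureCounts, MultiQC 1.6, DESeq2 1.26.0 and R 3.6.2, with genome build mm10. The annotation release and strand setting are not given in the sources used here, so genes with an overlapping partner on the other strand are uncertain. The values deposited by the authors are a scaled signal for each gene, made by dividing its reads by the size factor of the library, and the size factors equalled recomputed median-of-ratios factors. Whole reads were recovered for 100% of values (tolerance 0.01).

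Genes with a mean of 10 or more were tested with limma 3.58.1 (lmFit, eBayes with a variance trend, pseudocount 1, no covariate, two-sided) in R 4.3.3. A count test is not the main result because the deposited values are not reads. On the recovered reads edgeR 4.0.16 called 1912 genes and DESeq2 1.42.0 called 2494, and limma called 1861. DESeq2 gave an adjusted p for 19647 genes and the others for 13677, so these counts are not over the same genes. Scripts were tested on simulated data. Python 3.11.15 was used with scipy 1.17.1, pandas 2.3.3, matplotlib 3.10.9 and numpy 2.4.6. Of the gene IDs, 55141 matched GENCODE M21 with versions ignored. Nothing says more on the sampling than 1 TA muscle per sample, so p-values measure the spread between these samples.

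The 9 genes and the lists were chosen with earlier results of these data known. Named genes were the 9, Dmd, the largest called changes of each list (up to 3 rises and 2 falls) and the 3 nearest profiles of each tested gene. Other list genes were named after their values were seen, and some list genes are not reported here by name. As alternatives, the pseudocount was set to 0.1 or 10, and the following were tried: no filter, 10 or more in every sample, TMM factors, equal totals, median centring, no variance trend, a replicate block, each replicate left out, edgeR, DESeq2, no minimum fold change and, for levels, coding length.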

Additional observations from a re-analysis of the deposited data

Results flagged for a closer look

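Of 40 sets of 4 muscles that were examined for a value far from the others, 1 held such a value, where chance alone marks about 1 in 20. In mdx5cv the log2 ratio of Myod1 to Pax7 was 3.41 in replicate 1 and 2.74 to 2.81 in the other 3 muscles, so that the gap to the nearest muscle was 0.897 of the whole range.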

How the results depend on the processing

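Myod1, Myog and Megf10 were called higher in every alternative analysis, and Msc in each that tested it. The log2 fold change of Msc ranged from 1.04 (pseudocount of 10) to 2.38, with adjusted p from 0.00247 to 0.0259. The number of the 9 genes called ranged from 3 (10 or more in every sample, where Msc was not tested) to 5. Pax7 also passed the minimum fold under equal totals (1.26, adjusted p = 0.00259, range over alternatives 0.00259 to 0.0322), and leaving out 1 muscle at a time gave 0.72 to 1.03. Equal totals shifted the median of all genes to 0.36 and the share of calls that were higher from 76.0% to 91.5%, and turned the log2 fold change of Pax3 to 0.078 and that of Myf6 to 0.23. All-gene calls, 1861 by limma, came to 2844 with no filter, 1004 with 10 or more in every sample and 5597 with no minimum fold change, and to 1500 to 1996 with 1 muscle left out. With 10 or more in every sample, list genes called fell from 32 to 18, among them proliferation genes from 6 to 0, denervation genes from 6 to 3 and bHLH partners from 2 to 1. This filter removes genes that are low in either group, such as Dach2 in mdx5cv. The bHLH partners called were 4 under equal totals. With no minimum fold change 9 satellite cell, 4 bHLH and 6 upstream genes passed. Per kb of coding length Myf5 held 2.04% in WT and 1.78% in mdx5cv, and Myog 5.57% in WT.

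With 4 muscles per group, it could not be settled whether replicate numbers pair the muscles. Same-numbered deviations correlated at 0.0309 to 0.146, and the other pairs at -0.148 to 0.0741. Of 4 WT muscles, 2 correlated best with their own number. With the replicate block, 1882 genes and the same number, 4, of the 9 genes were called; its smallest exact p for a ratio was 0.125. Leaving out a muscle made no ratio pass adjustment. Genes below about 10 reads per muscle, such as Calcr and Msc in WT, limit what this depth can show.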
